A study of Mus musculus with 6 samples.

Results

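Cytosolic ribosomal protein genes encode the protein part of the ribosome that translates nuclear messages. They were found by name: a probe set counted when its single annotated symbol was Rpl, Rps or Rplp followed by a number, with an optional a, x or l, or was Rpsa. This gave 45 genes of 12393 measured, carried by 96 probe sets. Each gene was read from its brightest probe set, by the mean of the 6 arrays. They comprise 22 core genes of the large subunit, 19 core genes of the small subunit and 4 paralogues, Rpl3l, Rpl39l, Rps4l and Rps27l. RefSeq lists Rps4l as a transcribed pseudogene. No filter on low signal was applied, so all 45 were tested.

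RNA came from mouse regulatory T cells (Treg), the Foxp3-bearing CD4 T cells that restrain immune responses, sorted as CD4+YFP+ on a C57BL/6 background. The 3 control arrays have B6_WT titles and the genotype Foxp3cre. The 3 other arrays have USP7 titles, and the series text names fl-Usp7/Foxp3cre mice, in which Cre driven by Foxp3 would delete Usp7 in Treg, but their genotype field reads fl-HDAC11/Foxp3cre. They are called USP7-titled here; both groups carry Foxp3cre, and no age is given. The samples are described as independent, but no source says that each was 1 animal. The p-values therefore cover the variation of these samples, which may be technical.

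The small subunit holds the messenger RNA and reads its codons. The large subunit joins the amino acids and passes the new chain out through its exit tunnel. Ribosomal protein messages are among the most abundant in a T cell, and most begin with a run of pyrimidines, the 5' terminal oligopyrimidine (TOP) tract, through which mTORC1 and Larp1 control their translation. Several free ribosomal proteins, above all Rpl5 and Rpl11, bind Mdm2, the ubiquitin ligase of p53, and Usp7 removes ubiquitin from Mdm2 and p53.

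Values are deposited log2 expression, and a change is USP7-titled minus control. Between arrays, Pearson's r across probe sets was 0.995 to 0.996 within controls, 0.991 to 0.992 within the USP7-titled group and 0.969 to 0.974 between groups. Usp7 fell by 1.01 and the genotype-field gene Hdac11 by 0.58 on the log2 scale. Foxp3 averaged 12.98 in controls and 7.004 in USP7-titled arrays, so the gene that marks Treg was low in the latter, although Cd4 differed by 0.01. Xist fell by 7.20 on the log2 scale and the Y-linked Eif2s3y rose by 5.65, and sex cannot be told apart from group. Marker lists were counted at the limma threshold given below, which called 15.9% of all genes lower and 17.0% higher. Of these lists, 8 of 8 Treg genes and 4 of 7 T cell genes fell. In the list of macrophage and neutrophil genes 12 of 18 rose and 1 fell, in CD8 T and NK genes 3 of 9 rose and 1 fell, in B cell genes 1 of 7 rose, and in erythroid genes 0 of 4 passed in limma, 0 of them also at an unadjusted p of 0.05. The summed level of the myeloid list was 12.86 to 13.01 (control) and 13.19 to 13.44 (USP7-titled); that of 9 proliferation genes, all higher, was 11.37 to 11.64 and 14.34 to 14.37. In bulk samples fewer cells of a type and less RNA per cell cannot be told apart, and the part of sex, other cells or proliferation in the ribosomal results was not tested.

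Read from the brightest probe set, 40 of the 45 genes changed by less than 0.2 on the log2 scale. The largest changes that passed in this reading were those of Rpl12 and Rps25, which fell, and of the paralogues Rps27l and Rpl39l, which rose. The reading depends on which probe set a gene has: Rpl12 and Rps25 were read from dim probe sets, since their bright ones carry several symbols, and dim probe sets of Rps24, Rps18, Rps10 and Rps9 changed by -1.32, -1.27, -0.85 and -0.80, all past the threshold. Members of mean 13 or more lie near the top of the deposited range, which ends at 15.03, and whether such signals understate a change was not tested. Across all 45 genes the median log2 change was -0.07, beside -0.05 over all genes. In limma's test with Benjamini-Hochberg adjustment over all genes at 0.05, 16 members fell and 4 rose. The same rule called 32.9% of all genes, 15.9% lower and 17.0% higher, so the share lower, 35.6%, lay above the background and the share higher, 8.89%, below it. The groups did not overlap in 26 members, 57.8%, against 45.6% of all genes. Signal level matters here: at a mean of 13 or more they did not overlap in 60.6% of members and 70.5% of other genes.

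The count of small falls rests on how variance and scale are handled. Among 33 members with a mean of 13 or more, a level chosen after the values were seen, the median standard error (SE) was 0.03, against 0.12 over all genes, so differences of 0.07 to 0.18 passed. Without the mean-variance trend in the variance model, 2 members fell and 2 rose, the same 4 genes named above. Scaling to the hybridization spikes added 0.159 to every change, moving the median of all genes from -0.05 to 0.11, and 2 members fell and 14 rose; with quantile normalization 9 fell and 6 rose. Leaving out USP7-titled array 2 or 3 left 9 falls. Without control array 1, or without USP7-titled array 2, 2 members rose. Rpl12, Rps25, Rps27l and Rpl39l kept their direction and stayed past the threshold of 0.05 in every setting that measured them.

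**Figure D1:**
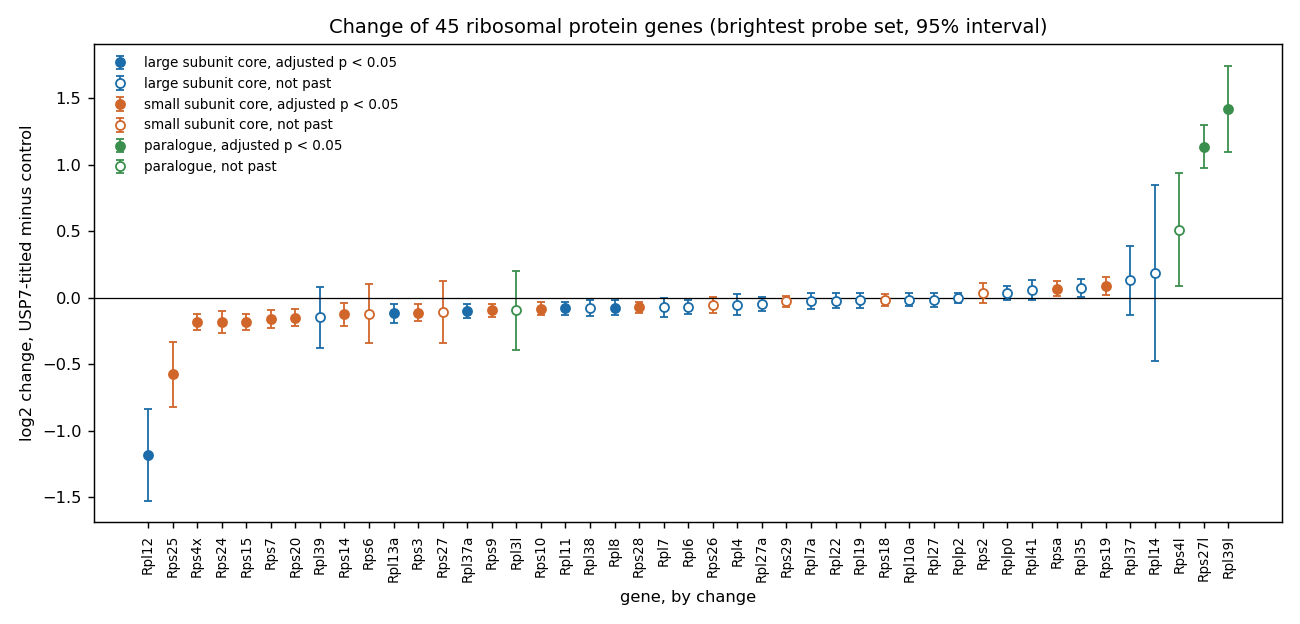
Log2 change (USP7-titled minus control) of the 45 genes, ordered by change, with 95% intervals from 3 arrays a group; filled points passed an adjusted p of 0.05, and colours mark the large subunit, the small subunit and the paralogues. Most points lie within 0.2 of 0, with Rpl12 and Rps25 lowest and Rps27l and Rpl39l highest. Spike scaling would move every point up by 0.159, which turns the sign of values between -0.159 and 0.

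The start regions of 6 genes on which the results turn are shown because the TOP tract begins at or near the start of transcription. Each runs 5' to 3' from 30 bases before to 20 bases after the first RefSeq start listed (build GRCm38.p6), and capitals mark its longest run of C and T, or both runs where a pair ties.
Rpl12, chr2:32961682-32961731, plus strand: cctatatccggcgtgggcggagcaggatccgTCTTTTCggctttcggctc
Rps25, chr9:44407684-44407733, plus strand: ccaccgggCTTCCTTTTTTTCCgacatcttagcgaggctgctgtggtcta
Rps24, chr14:24490648-24490697, plus strand: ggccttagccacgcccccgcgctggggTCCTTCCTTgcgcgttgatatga
Rps18, chr17:33955646-33955695, minus strand: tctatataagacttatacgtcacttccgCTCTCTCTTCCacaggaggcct
Rps27l, chr9:66946056-66946105, plus strand: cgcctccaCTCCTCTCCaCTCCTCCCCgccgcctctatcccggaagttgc
Rpl39l, chr16:10170198-10170247, plus strand: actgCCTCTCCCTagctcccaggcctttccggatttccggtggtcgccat
The longest run was 7 bases in Rpl12, 14 in Rps25, 9 in Rps24, 11 in Rps18 and 9 in each of the risen paralogues, Rps27l, which has 2 such runs, and Rpl39l. The marked runs of Rps25, Rps27l and Rpl39l lie wholly before the listed start, outside the listed transcript. From that start they cannot be read as TOP tracts. Those of Rps24 and Rps18 span the start, and that of Rpl12 lies after it.

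RefSeq promoters of 300 bases were matched for 39 of the 45 genes by symbol. A run of at least 8 C or T within 25 bases of the start was present in 20 of them (51.3%), against 18.9% of 17492 protein-coding genes. Runs on either side of the start counted, so a run need not lie in the transcript. The letters CTTCCG, the core of an ETS factor motif, stood on either strand in 28 of the 39 promoters (71.8%), against 21.5% of those protein-coding genes. Among the 13 matched genes that fell, 6 held the run and 9 held CTTCCG; among the 26 others, 14 and 19 did. Both features therefore occurred at like shares in members that fell and members that did not, with no test made. The run length and the letters searched were chosen after these promoters had been looked at. A match is a description of these letters and says nothing of binding.

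Rpl12 encodes a protein at the base of the stalk, the arm of the large subunit that recruits translation factors. Its probe set read 9.87, 10.04 and 10.24 (control) and 8.92, 9.17 and 8.52 (USP7-titled). Every USP7-titled array was below every control. Group means were 10.05 ± 0.18 and 8.87 ± 0.33 (SD, n = 3 each). They differed by -1.18 (SE 0.16), which is 2.27-fold lower (limma adjusted p = 0.00016). The other stalk proteins measured did not pass. Rplp0, which anchors the stalk, read 13.58 to 13.61 (control) and 13.61 to 13.64 (USP7-titled), a change of 0.04 (95% interval -0.01 to 0.09). Rplp2, the brightest member, read 14.41 to 14.44 and 14.41 to 14.43, a change of -0.00084 (95% interval -0.04 to 0.03). The Rpl12 value comes from 1 probe set far dimmer than most members. Both probe sets that the annotation gives to Rpl12 together with predicted genes were bright, with means of 13.65 and 13.24. They changed by -0.06 and -0.16, of which the latter passed (limma adjusted p = 0.0024), and cannot be read as Rpl12 alone.

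Rps25, a small subunit protein near the messenger exit that is needed by some internal ribosome entry sites, read 10.48, 10.42 and 10.58 in controls. The USP7-titled arrays read 9.72, 10.17 and 9.87, all below the controls. The change was -0.57 (SE 0.11), 1.49-fold lower (limma adjusted p = 0.00216). As for Rpl12, a bright probe set shared with predicted genes moved less, by -0.10 at a mean of 13.71 (limma adjusted p = 0.00839).

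Rps27l rose in every USP7-titled array. It encodes a near copy of the small subunit protein Rps27, is a known transcriptional target of p53 and binds Mdm2. It read 11.70, 11.43 and 11.75 (control) and 12.69, 12.77 and 12.82 (USP7-titled). The group means, 11.62 ± 0.17 and 12.76 ± 0.06 (SD, n = 3 each), differed by 1.14 (SE 0.07), 2.20-fold higher (limma adjusted p = 8.42e-07). All 3 of its probe sets rose, the others by 1.06 and 1.32. Rps27 itself was read by 1 dim probe set at 8.36 to 8.51 (control) and 8.30 to 8.40 (USP7-titled), a change of -0.11 (SE 0.11, limma adjusted p = 0.48). A bright probe set that Rps27 shares with Rps27rt, at a mean of 13.89, changed by 0.00074.

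Rpl39l, the autosomal copy of the X-linked exit tunnel gene Rpl39 and best known from testis, showed the largest change of any member. It read 6.15, 6.18 and 6.48 (control) and 7.47, 7.71 and 7.89 (USP7-titled), with no overlap. The change was 1.42 (SE 0.15), 2.67-fold higher (limma adjusted p = 2.96e-05), at a level that stayed below the median gene. Rpl39 read 8.86 to 8.91 in controls and 8.61 to 8.83 in the other group without overlap, a change of -0.15 (SE 0.10, limma adjusted p = 0.325). A bright probe set shared by Rpl39 and a predicted gene, at a mean of 13.67, fell by 0.12 (limma adjusted p = 0.00299). Rpl39l lies on chromosome 16, as does Usp7. RefSeq places 2 protein-coding genes between them, of which 1 was measured, with a change of 0.04 that did not pass.

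The remaining paralogues did not pass. Rps4l read 6.66, 6.64 and 6.49 (control) and 6.93, 7.61 and 6.78 (USP7-titled), higher in all 3 with 1 array well above the others, a change of 0.51 (SE 0.19, limma adjusted p = 0.0655). It passed with quantile normalization (0.58), spike scaling (0.67), array weights (0.58), the replicate block and without USP7-titled array 3 (0.68), and without array 2 its change was 0.26. Rpl3l, the muscle copy of Rpl3, was the second dimmest member at a mean of 5.34 and changed by -0.09 (SE 0.13). Beyond the naming rule, Rpl22l1, a copy of Rpl22, changed by 0.10 (limma adjusted p = 0.0523) and Rpl7l1 by 0.29 (limma adjusted p = 0.116). Paralogues thus had a median of 0.82 over 4 genes, against -0.07 over the 41 core genes, a contrast carried by Rps27l and Rpl39l and given with no test.

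**Figure D2:**
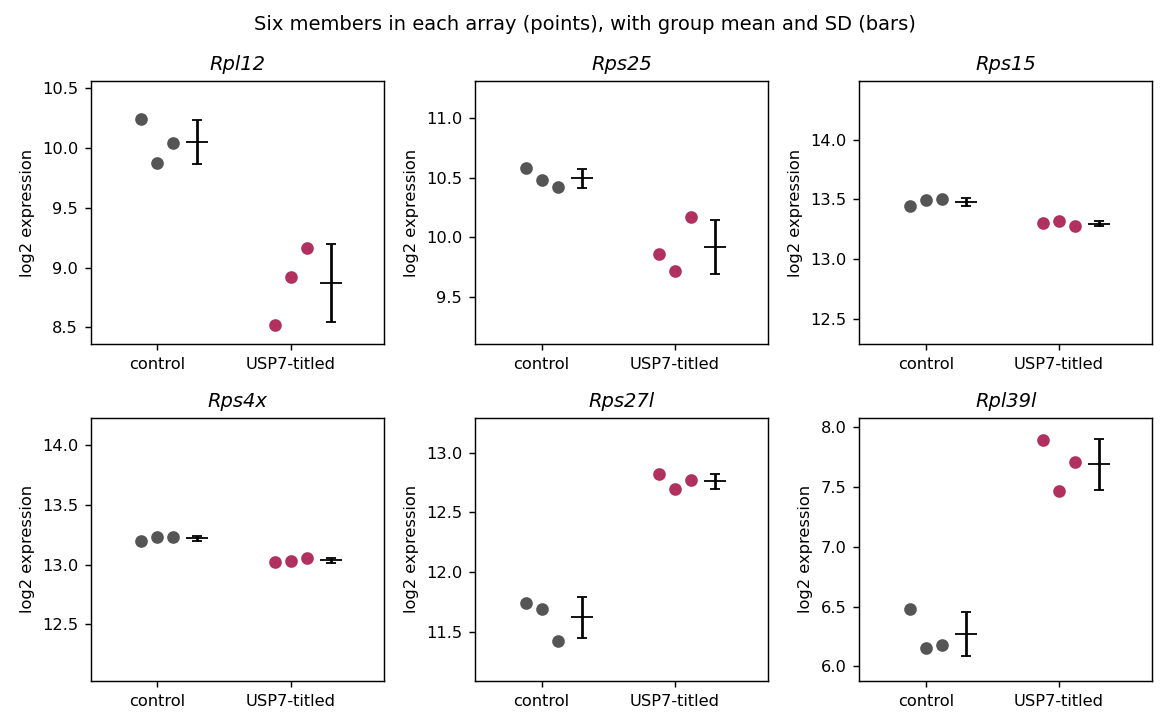
Log2 expression of 6 members in each array (points: 3 control, 3 USP7-titled), with group mean and SD beside them; every panel spans 2.2 log2 units. Rpl12 and Rps25 are lower and Rps27l and Rpl39l higher in all USP7-titled arrays, while Rps15 and Rps4x differ by 0.18 with narrow spread, differences that do not pass with spike scaling.

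More falls were counted in the small subunit than in the large, a description with no test. Of 19 core genes of the small subunit 11 fell and 2 rose, with a median of -0.11; of 22 of the large subunit 5 fell and 0 rose, with a median of -0.04. In the large subunit 1 gene, Rpl35, was higher at an unadjusted p under 0.05. The medians differed by 0.07, and by 0.05 with quantile normalization. The large minus small difference of medians within an array was 0.07, 0.03 and 0.17 (control) and 0.17, 0.31 and 0.26 (USP7-titled). Control array 3 and USP7-titled array 1 had nearly the same value. At a mean of 13 or more 10 of 15 small subunit genes and 4 of 18 large subunit genes fell, beside 14 of 61 other genes (23.0%), of which 26 rose (42.6%). At 12 or more these were 10 of 16, 4 of 18 and 101 of 363. These calls share the dependence on trend and scaling given above.

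Among abundant small subunit genes the falls were narrow. Some were even across arrays, while in Rps14 the groups overlapped. Rps15, at the decoding head of the subunit, read 13.49, 13.50 and 13.44 (control) and 13.32, 13.28 and 13.30 (USP7-titled), a change of -0.18 (SE 0.03, limma adjusted p = 0.000344). Rps4x, X-linked as is Rpl39, read 13.23, 13.23 and 13.20 and then 13.03, 13.06 and 13.02, also -0.18 (SE 0.03, limma adjusted p = 0.000404). These genes, with Rps24 (-0.18), Rps7 (-0.16), Rps20 (-0.15) and Rps9 (-0.09), passed with each array left out in turn, but did not pass without the trend or with spike scaling. The falls of Rps14, Rpl13a, Rps3, Rpl37a, Rps10, Rpl11, Rpl8 and Rps28, from -0.07 to -0.12, were lost when at least 1 array was left out. So were both small rises, Rps19, a gene mutated in Diamond-Blackfan anaemia (0.09), and Rpsa, also known as the laminin receptor (0.07).

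Members were also read by place and partner. Of 14 listed proteins known to bind Mdm2, 10 were measured: 7 fell, Rps27l rose, and Rps27 and Rpl37 did not pass. Over all genes 15.9% fell, over all members 35.6% and over small subunit core genes 57.9%. Of these 7 falls, all but that of Rpl11 were in the small subunit core. Rps25 alone among them passed both without the trend and with spike scaling. Rpl37 was read from the dimmest probe set of any member, at a mean of 3.84. The probe sets that Rpl37 shares with Rpl37rt, at means of 13.37, 13.35 and 9.99, changed by -0.15, -0.10 and -0.24. The first and last of these passed (limma adjusted p = 0.00585 and 0.034). Rpl11, of the 5S particle that inhibits Mdm2, read 13.60 to 13.64 (control) and 13.54 to 13.55 (USP7-titled), a change of -0.08 (SE 0.02, limma adjusted p = 0.0196). For Rpl5, its partner, no probe set with a single symbol was measured. The 3 probe sets that Rpl5 shares with a pseudogene changed by -0.18, -0.28 and -0.47, of which the first and last passed (limma adjusted p = 0.00044 and 0.00405). Of 10 genes listed around the exit tunnel 6 were measured, and 0 passed in limma, with 2 at an unadjusted p under 0.05. The 6 were Rpl4, Rpl19, Rpl22, Rpl35, Rpl38 and Rpl39, from -0.15 to 0.08. Rpl17, Rpl23a, Rpl26 and Rpl31, also listed, had only probe sets with several symbols. Of those that passed, the ones naming Rpl17 changed by -0.16, -0.18 and 0.76. The ones naming Rpl31 changed by -0.07, -0.07 and -0.88. Those of Rpl23a and Rpl26 did not pass. Among other large subunit genes Rpl8 fell by 0.07, while Rpl10a and Rpl27 changed by -0.02 each. Along the messenger path Rps3, Rps14, Rps15 and Rps28 fell, and Rps2 (0.04) and Rps26 (-0.05) did not pass. The brightest members, Rplp2, Rpl41 (0.06) and Rps28, and the dimmest, Rpl37 (mean 3.84, change 0.13), Rpl3l and Rps4l, held no change above 0.1 that passed. The remaining core genes, Rpl6, Rpl7, Rpl7a, Rpl14, Rpl27a, Rps6, Rps18 and Rps29, did not pass and ranged from -0.12 to 0.19. Rpl14 was the least even, at 9.23, 9.15 and 10.61 (control) and 9.87, 9.95 and 9.73 (USP7-titled). Leaving out 1 array moved its change from -0.07 to 0.66, and without control array 3 it passed (0.66, limma adjusted p = 0.00117).

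Dimmer probe sets of the same genes had larger changes than the bright ones, given as a description with no test. Of the 45 genes 22 had several probe sets, and in 15 of these 20 probe sets lay at least 2 log2 units below the brightest of their gene. Of these 20, 10 fell and 1 rose, with a median change of -0.52; the brightest probe sets of the same 15 genes had a median of -0.08. Among 2117 such dimmer probe sets of other genes, 19.1% fell, 8.36% rose and the median was -0.09. Where the other gene's brightest probe set had a mean of 13 or more, 18.9% of 37 fell, with a median of -0.09. Over all 96 probe sets of the members 42 fell and 9 rose, against 16.7% and 16.3% of all single-symbol probe sets. This division by brightness was chosen after the values were seen. The count was 10 without the trend, 10 with quantile normalization and 7 with spike scaling, where the median was -0.36 against 0.06 for other genes, and 8 to 11 with 1 array left out.

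Rps24, whose transcripts are known to differ in their last exons, had the dim probe set that fell furthest. This probe set read 8.59, 8.05 and 8.32 (control) and 6.96, 7.07 and 6.98 (USP7-titled), a fall of 1.32 (SE 0.15, limma adjusted p = 6.53e-05) against 0.18 for the brightest. A still dimmer Rps24 probe set changed by -0.12 and did not pass. Rps18, at the head of the small subunit, did not pass by its brightest probe set (-0.02, SE 0.02), which read 13.77 to 13.79 and 13.75 to 13.78. Rps18 also had a bright probe set at a mean of 13.50 that fell by 0.15 (limma adjusted p = 0.00786), and another at 13.64 that did not pass (-0.04). One of its dim probe sets read 9.92, 10.01 and 9.67 (control) and 8.71, 8.74 and 8.34 (USP7-titled), a fall of 1.27 (SE 0.13, limma adjusted p = 4.00e-05). Its other dim probe sets fell by 0.81 and 0.64.

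The same held for other members. Rps10 fell by 0.85 by its dim probe set, which read 8.31, 8.32 and 8.20 and then 7.48, 7.17 and 7.62, against 0.08 by its brightest. Rps9 fell by 0.80, Rpl41 by 0.74 and 0.41, Rps20 by 0.54 and Rpl22, which binds small viral and cellular RNAs, by 0.50. In Rpl41 and Rpl22 the brightest probe set did not pass. Another bright Rpl41 probe set, at a mean of 13.15, rose by 0.10 (limma adjusted p = 0.0312). Rpl35 (-0.79) and the dimmest Rps20 probe set (-0.61) did not pass and their groups overlapped. Those of Rpsa, Rps4x, Rpl37a, Rps6, Rpl27a and Rpl7 lay between -0.27 and 0.01 and did not pass. Rpl13a went the other way. Its dimmest probe set read 11.54, 11.49 and 11.53 (control) and 11.98, 11.98 and 11.95 (USP7-titled), a rise of 0.45 (limma adjusted p = 2.70e-05), while its brightest fell by 0.12. Its probe sets between these in level changed by -0.17 and 0.26, in the order of their brightness, and both passed. Where the probes lie in each transcript was not analysed here.

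**Figure D3:**
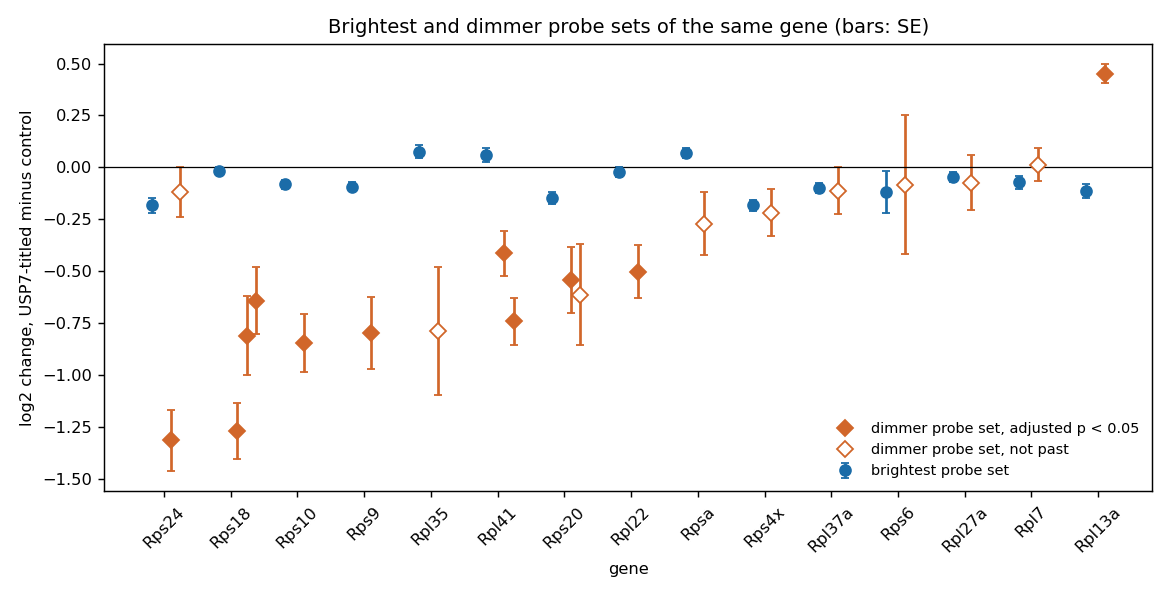
Log2 change (USP7-titled minus control) with SE for the brightest probe set (circles) and for probe sets at least 2 log2 units dimmer (diamonds, filled where adjusted p was under 0.05) in 15 genes. Circles lie between -0.18 and 0.08; 18 of 20 diamonds lie below 0, with Rpl13a at 0.45 the exception that passed. With spike scaling 7 of the diamonds pass as lower.

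**Figure D4:**
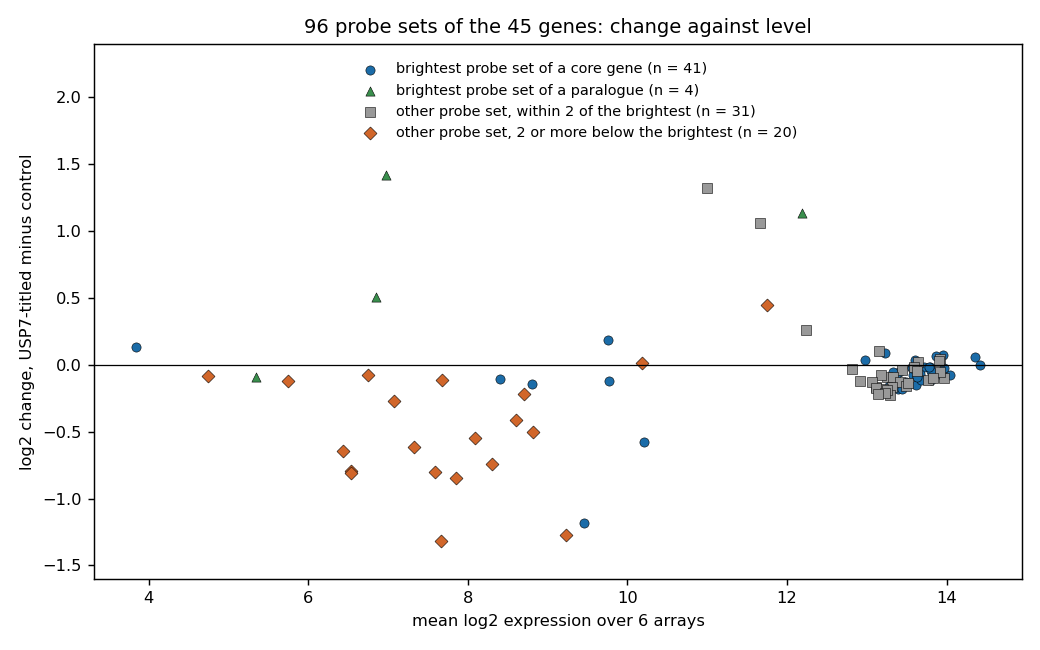
Log2 change against mean log2 expression over 6 arrays for the 96 probe sets, marked by kind. Probe sets of mean 13 or more lie between -0.23 and 0.10, and spike scaling would move every point up by 0.159, while those below 10.5 spread from -1.32 to 1.42.

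A further 102 probe sets carry several symbols of which at least 1 has a ribosomal name, often beside pseudogenes. Values of some were given above beside a named gene, but none can be read as that gene alone. The 102 probe sets bear on 41 ribosomal symbols, of which 27 have no probe set of their own. In a fit over all 22626 probe sets 41 of them fell and 3 rose, with a median of -0.07, against 17.1% lower and 16.2% higher over all. Of 74 with a mean of 13 or more, 31 fell and the furthest change was -0.19. Of the 28 dimmer ones 10 fell and 2 rose, with a median of -0.17 and a lowest change of -1.05. As among single-symbol probe sets, values were small at high signal and wider at low signal.

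Other genes of the pathway were counted from fixed lists, beside 15.9% of all genes lower and 17.0% higher. Of 16 measured genes outside the naming rule whose messages carry a TOP tract, Fau among them, 8 fell and 3 rose, with a median of -0.08. The initiation factor Eif4b fell by 0.44, the elongation factor subunit Eef1b2 by 0.26 and Tpt1 by 0.25, and Nap1l1 rose by 0.24. Of 32 genes for ribosome assembly and rRNA transcription 10 fell and 3 rose, with a median of -0.12; the assembly ATPase Mdn1 fell by 0.87 and the RNA polymerase I subunit genes Polr1b and Polr1a by 0.62 and 0.48. Taf1a, of the polymerase I initiation complex, fell by 0.55. Of 11 genes that control TOP messages 3 rose and 2 fell. Eif4ebp1, the translation repressor inactivated by mTORC1, rose by 1.08 and Rheb, its activator, by 0.40, while Myc fell by 0.77 and Tsc1 by 0.53. Fau, which encodes a small subunit protein fused to a ubiquitin-like one, changed by -0.08 (limma adjusted p = 0.0623).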

How the data were processed

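The authors deposited log2 expression per probe set for 6 arrays of biotin-labelled RNA (100 ng per sample, per the labels' protocols); how they were summarised and normalized was not given in the sources used here. Log base 2 was read from the values, 2.21 to 15.03, and array medians were 7.91 to 7.96. Of 22690 probe sets, 64 were array controls and left out; 20380 had 1 symbol, 691 several and 1555 none in the platform annotation. Testing used limma 3.58.1 under R 4.3.3 (lmFit, eBayes with trend, two-sided, Benjamini-Hochberg over 12393 genes; single probe sets over 20380). The fit was tested on simulated data, whose noise was made smaller once after a first version recovered fewer changes than the bar set for it. Precision is limited by 3 arrays per group. Members and lists were chosen with earlier results of these data known, so lists are described by counts and medians. Named were members past the threshold, the largest changes, the brightest and dimmest, fixed role groups, and probe sets that differ from the brightest. Alternatives covered normalization, filters, probe set choice, variance model, replicate block, thresholds and left-out arrays.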

Additional observations from a re-analysis of the deposited data

How the results depend on the processing

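Rpl12, Rps25, Rps27l and Rpl39l kept direction and call in every alternative that measured them at the threshold of 0.05. The count of falls (16) was 9 with quantile normalization, 2 with spike scaling, 2 without trend, 8 at a threshold of 0.01, 8 without x, s and a type probe sets (23 members left) and 42 over every probe set. The count of rises (4) was 14 with spike scaling, 2 without trend, 2 at 0.01, 2 without x, s and a type probe sets, 2 without the paralogues (added after the data were seen) and 9 over every probe set. With the replicate number as a block 7 rose and 18 fell. Same-numbered arrays correlated at 0.08, -0.06 and 0.09 in their deviations, and differently numbered ones at -0.15 to 0.08. These values show no pairing by number, but 3 arrays per group cannot settle whether the samples were paired. The median of members (-0.07) was -0.0235 with quantile normalization, 0.0918 with spike scaling, -0.0795 with the mean of probe sets, -0.0931 over every probe set, -0.120 without x, s and a type probe sets and -0.0541 without X and Y genes. Large minus small (0.07) was 0.552 without x, s and a type probe sets. Dimmer probe sets that fell (10) were 6 at 0.01. Leaving out 1 array gave 2 to 5 rises, 9 to 18 falls, medians of -0.0688 to -0.0477, large minus small of 0.0409 to 0.104, and 8 to 11 dimmer falls. Spike scaling adds 0.159 to every change, so by construction values between -0.159 and 0 turn positive; those that passed with or without it became Rps29 0.13, Rplp2 0.16, Rpl37a 0.0598, Rpl11 0.0796, Rpl8 0.0848, Rps28 0.0859, Rpl10a 0.14, Rps9 0.0647, Rps10 0.0768, Rps3 0.0479, Rps18 0.14, Rps14 0.0345, Rpl27 0.14, Rpl13a 0.0437 and Rps20 0.0104. With the mean of probe sets Rpl13a was 0.11, Rpl41 -0.25 and Rpsa -0.10; without x, s and a type probe sets Rpl41 was -0.74. These last follow from other probe sets of the gene entering; the other causes were not tested. Dimmer probe sets were not compared under the filter, probe set and X and Y alternatives. No background or detection call was analysed here, so changes of dim probe sets may be understated.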
